A study of Mus musculus with 3 samples.

Results

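The 10 genes described here encode heat shock proteins of the cytosol and the mitochondrial matrix: Hspa1a, Hspa1b, Hspa8, Hsp90aa1, Hsp90ab1, Hsph1, Dnajb1, Hspb1, Hspe1 and Hspd1. They were taken from a list of gene names that was made with earlier results of these data known, and were matched by gene ID. All 10 were found among the 16621 genes with a count in any library. The libraries were made from poly(A) RNA of cultured mouse tendon derived stem cells, which are progenitor cells grown out of tail tendon, in C57BL/6 animals that the study gives as 10 weeks old. There was 1 wild-type library (WT) and there were 2 libraries from cells carrying the ΔF508 mutation of Cftr (DF508), the chloride channel mutated in cystic fibrosis. All the cultures were untreated, were at passage 4 and were taken at confluence. Nothing in the labels ties the 2 mutant libraries to different animals or cultures, and the p-values therefore reflect only how far these libraries scatter, which may be technical. In RNA from a whole culture, fewer cells of a type and less RNA per cell cannot be told apart.

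Heat shock proteins are chaperones: they hold unfolded proteins, help them fold, or hand them to the degradation machinery. The HSP70 cycle starts when a J protein such as Dnajb1 delivers a client and ends when an HSP110 protein such as Hsph1 exchanges the nucleotide, and HSP90 takes over partly folded kinases and receptors. Small heat shock proteins hold clients without using ATP, and in mitochondria the chaperonin of Hspd1 and Hspe1 encloses a client in a cage. In stressed cells the heat shock factor Hsf1 raises many of these genes, while Hspa8 and Hsp90ab1 are made in large amounts in unstressed cells too. ΔF508 leaves a misfolded CFTR protein, which is known as a client of cytosolic HSP70 and HSP90.

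The libraries held 5298326 (WT), 5241826 (DF508 replicate 1) and 5246886 (DF508 replicate 2) expected counts. The mutant libraries were not the same within sampling noise: over 13365 genes their chi-square per degree of freedom was 3.57. Cftr had 15 counts in WT and 1 count in each DF508 library and did not pass (edgeR adjusted p = 0.185); a count over the whole gene does not check a small deletion. All 11 tendon and stromal markers were present in every library, with summed levels of 43020, 44560 and 46700 CPM (counts scaled to the library total). Of 5 endothelial markers Pecam1, Cdh5 and Emcn were listed in no library, nor were Krt5, Krt14 and Cdh1 of 5 epithelial markers. The endothelial marker Tek had 77, 69 and 65 counts, and Kdr, Epcam and Krt8 had 0 to 3 counts in each library. Markers of myeloid cells differed between libraries: the 10 genes summed to 91.4 CPM in WT, 142 CPM in DF508 replicate 1 and 659 CPM in DF508 replicate 2, and none was at 0.

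No heat shock gene differed between mutant and wild-type cells past the test, which does not show that their levels were equal. None of the 10 genes passed the threshold of 0.05 in either direction (edgeR's quasi-likelihood fit over all genes, adjusted p = 0.33 to 0.982 by Benjamini-Hochberg), where 1.39% of the 12888 genes tested did, 0.489% higher and 0.9% lower in DF508. An unadjusted p under 0.05 was found for 1 of the 10, Hsph1, and for 1538 of the 12888 genes tested. None was called by DESeq2's Wald test, limma-voom or edgeR's likelihood ratio test, but DESeq2 gave no adjusted p for Hspa1a. The median log2 fold change was -0.06 for the 10 genes and 0.01 for all genes tested, and the median size of the change, sign aside, was 0.12 against 0.18. By size alone, 0 of the 10 were 1.5-fold or more above or below WT in each mutant library, where 4.96% of 12882 genes were that far above and 2.79% that far below. The genes tested were not matched in level to the 10, so these medians and shares do not show that the 10 were steadier than genes of like level. The 95% interval of the fold change lay within 1.5-fold either way for 8 of the 10 genes and within 2-fold for 9. With 1 WT library, its spread had to be taken from the mutant pair.

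**Figure D1:**
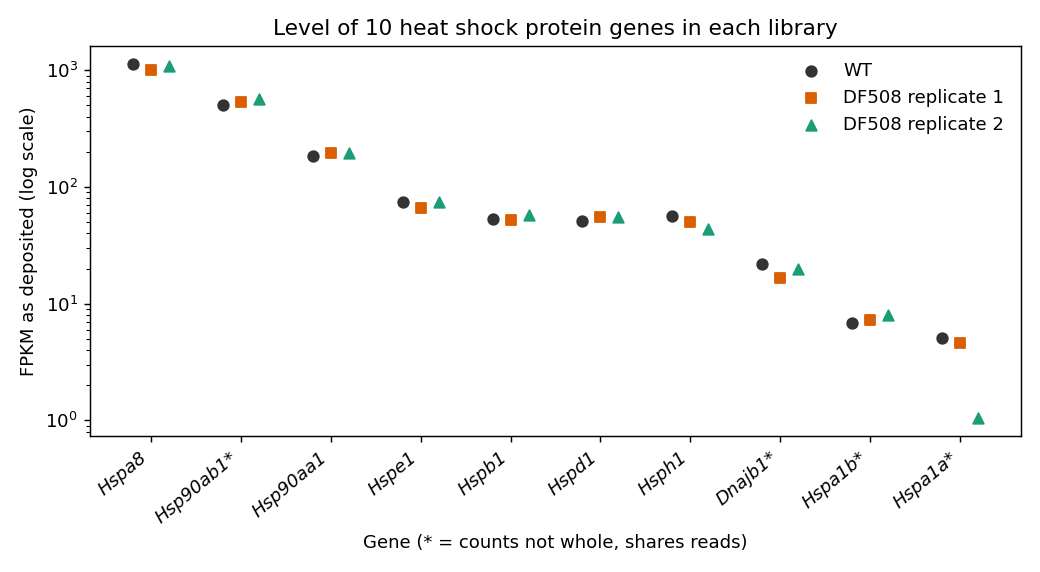
FPKM as deposited (log axis) of the 10 genes, ordered by mean level, with 1 point per library (circle WT, square DF508 replicate 1, triangle DF508 replicate 2). The libraries lie close together for each gene except Hspa1a, at 5.05, 4.59 and 1.05 FPKM.

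The levels were compared per length as FPKM (fragments relative to the length of the gene and to the depth). They ran from 1139.55 down to 5.05 FPKM in WT and from 998.22 to 4.59 FPKM in DF508 replicate 1. In replicate 2 the range was wider, from 1085.09 to 1.05 FPKM, through the low value of Hspa1a. Hspa8 was highest, followed by Hsp90ab1 and Hsp90aa1, and these neighbours did not overlap in any library. Hspe1, Hspb1, Hspd1 and Hsph1 came next. Hspe1 stood above the other genes of this group in every library, at 66.04 FPKM or more, while Hspb1, Hspd1 and Hsph1 overlapped, between 43.45 and 58.05 FPKM. Dnajb1 followed, and Hspa1b and Hspa1a were lowest. Together the 10 genes made up 0.469% of all counts in WT and 0.446% and 0.471% in the mutant libraries. Hspa8 alone held 50.96% of their counts in WT. Without Hspa8 the sum was 2300 CPM in WT and 2365 and 2429 CPM in the mutant libraries. Without Hspa8 and Hsp90ab1 it was 1031, 1029 and 1016 CPM. Scaled to the library total the 10 genes summed to 4691 CPM in WT and 4582 ± 174.8 CPM (SD, n = 2) in DF508. With this scaling the difference was smaller than the spread between the DF508 libraries. With the TMM-normalized sizes used in the fits the mean ratio of DF508 to WT was 0.947 rather than 0.977. The size of the difference, and whether it is smaller than that spread, therefore depend on the scaling.

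Hspa8, the constitutive HSP70 that also uncoats clathrin vesicles, had 1139.6 FPKM in WT, 998 FPKM in DF508 replicate 1 and 1085 FPKM in DF508 replicate 2. WT was the highest of the 3 libraries. Against WT the ratios were 0.85 (95% interval 0.829 to 0.872) in replicate 1 and 0.922 (0.899 to 0.946) in replicate 2, from 12666, 10974 and 11944 counts; these exact binomial intervals cover counting error only. The fitted log2 fold change was -0.17 ± 0.086 (SE), with an interval of -0.37 to 0.02, and the gene did not pass (edgeR adjusted p = 0.477). The difference was therefore larger than counting error in each DF508 library, but not past the test that includes the spread between libraries.

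Hspa1a and Hspa1b encode the stress-inducible HSP70, and in these untreated cultures their level was low beside that of Hspa8. The FPKM of Hspa8 was 95.5 times that of Hspa1a and Hspa1b together in WT, and 84.3 and 119 times in the mutant libraries. Hspa1b had 102.52, 106.94 and 119.01 expected counts in WT and the DF508 replicates, or 6.88, 7.25 and 8.06 FPKM. Both DF508 libraries were slightly above WT, with a log2 fold change of 0.10 ± 0.208 (SE; edgeR adjusted p = 0.9).

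Hspa1a had 74.9 expected counts in WT, 67.33 in DF508 replicate 1 and 15.38 in DF508 replicate 2, or 5.05, 4.59 and 1.05 FPKM. WT and DF508 replicate 1 were alike and replicate 2 stood far below both. The fitted log2 fold change of -0.90 ± 0.593 (SE) had an interval of -2.24 to 0.45 and did not pass (edgeR adjusted p = 0.624). It rested on replicate 2: the log2 difference from WT was -0.18 without that library and -2.32 without replicate 1. The gap between the DF508 libraries was -2.13 on the log2 scale, and 99.2% of the genes tested had a smaller gap. The summed myeloid markers were highest in that same library, at 659 CPM; their part in the value was not tested.

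The counts of Hspa1a and Hspa1b were not whole in any library, so reads were divided between near-identical copies and each gene's count is uncertain. Hspa1a held 42.2% of the pair's counts in WT, 38.6% in DF508 replicate 1 and 11.4% in replicate 2. With Hspa1l, a testis HSP70 gene next to them that was also not whole, the counts added up to 182 in WT, 176.4 in replicate 1 and 142 in replicate 2. The pair alone summed to 177, 174 and 134 rounded counts. Summed before the fit, the pair had a log2 fold change of -0.23 ± 0.199 (SE), with an interval of -0.68 to 0.22, and did not pass (edgeR adjusted p = 0.722). In GENCODE transcripts the coding sequences of Hspa1a and Hspa1b were identical in 99.4% of 1929 aligned columns. Of the 50-base words in the Hspa1a coding sequence 82.3% occurred in that of Hspa1b, and of those in its 3′ untranslated region 0% did. Hspa8 shared no 50-base word with either coding sequence, at 74.1% and 74.4% identity.

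**Figure D2:**
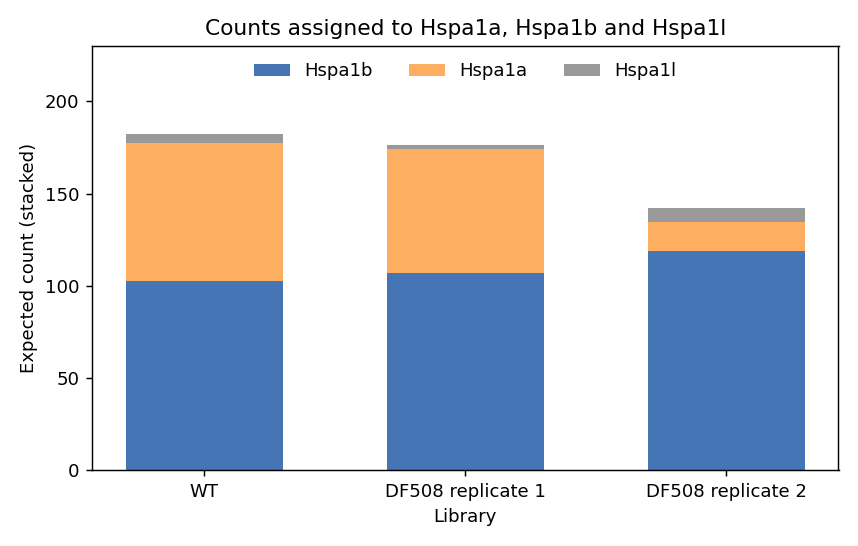
Expected counts (vertical axis, stacked from 0) assigned to Hspa1b, Hspa1a and Hspa1l in each library (horizontal axis). The Hspa1b part is alike, at 102.52, 106.94 and 119.01, while the Hspa1a part is 74.9, 67.33 and 15.38.

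The copies also have nearly the same promoter, which is shown with the motif of heat shock factors marked. Binding of these factors was not tested. The sequences are RefSeq's (GRCm38.p6), from 250 bases before the start site to 50 after it, on the minus strand of chromosome 17 at chr17:34972107-34972406 for Hspa1a and chr17:34959189-34959488 for Hspa1b, with the start sites 12918 bases apart. Capitals mark the heat shock element motif searched for, GAANNTTC or TTCNNGAA, each of which reads the same on both strands and may overlap the other.
Hspa1a: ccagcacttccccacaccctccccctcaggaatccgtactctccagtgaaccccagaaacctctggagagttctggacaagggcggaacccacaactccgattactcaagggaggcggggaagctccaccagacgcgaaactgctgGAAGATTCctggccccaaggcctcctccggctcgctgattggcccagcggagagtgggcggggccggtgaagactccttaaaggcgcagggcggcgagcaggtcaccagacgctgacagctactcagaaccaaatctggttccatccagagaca
Hspa1b: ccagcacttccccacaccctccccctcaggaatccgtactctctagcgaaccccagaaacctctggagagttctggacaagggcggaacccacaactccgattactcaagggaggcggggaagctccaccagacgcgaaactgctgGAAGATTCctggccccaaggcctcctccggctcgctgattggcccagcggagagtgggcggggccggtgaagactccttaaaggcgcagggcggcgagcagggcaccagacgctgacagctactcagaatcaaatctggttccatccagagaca
The windows were identical at 296 of 300 bases. Counted from the 5′ end of the window, with the Hspa1a base first, the differences are C44T, T47C, T249G and C276T. None lies in the motif, which starts 104 bases before the start site in both. Each holds 1 match of the motif and no run of 3 alternating units.

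HSP90 transcripts differed by small amounts that did not pass. Hsp90ab1, the constitutive form, had 507 FPKM in WT, 533 FPKM in DF508 replicate 1 and 564 FPKM in DF508 replicate 2. WT was the lowest, and the log2 fold change was 0.07 ± 0.087 (SE; interval -0.13 to 0.27; edgeR adjusted p = 0.825). Its counts of 6727.97, 7002.97 and 7415.94 were not whole, by a few hundredths of a count. Hsp90aa1, the stress-responsive form, had 184 FPKM in WT and 194.13 and 194.22 FPKM in the DF508 libraries. The DF508 pair was almost the same here: 0.5% of the genes tested had a smaller gap between these libraries. The log2 fold change was 0.03 ± 0.093 (SE; interval -0.18 to 0.24; edgeR adjusted p = 0.932). The level of Hsp90ab1 over Hsp90aa1, as a ratio of FPKM, was 2.75 in both WT and DF508 replicate 1 and 2.9 in replicate 2.

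After Hspa1a, the partners of HSP70 had the largest fitted differences of the 10 genes. Hsph1, the HSP110 nucleotide exchange factor, had 56.6 FPKM in WT, 50.55 FPKM in DF508 replicate 1 and 43.45 FPKM in replicate 2. WT was highest and replicate 2 lowest, from 1047, 925 and 796 whole counts. The ratios to WT were 0.867 (0.793 to 0.948) and 0.744 (0.677 to 0.816), again with counting intervals. The log2 fold change was -0.31 ± 0.12 (SE) with an interval of -0.58 to -0.04, which is not corrected for the number of genes, and the gene did not pass (edgeR adjusted p = 0.33). Its size exceeded that of 69.6% of the genes tested.

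Dnajb1, the J protein that delivers clients to HSP70, had 21.74 FPKM in WT, 16.54 FPKM in DF508 replicate 1 and 19.92 FPKM in replicate 2. WT was again highest, but here replicate 1 was the lowest library. The log2 fold change was -0.30 ± 0.152 (SE; interval -0.65 to 0.04; edgeR adjusted p = 0.488). Its counts of 262.72, 197.71 and 238.31 were not whole, so they are uncertain, and 0.441% of its 50-base words occurred in transcripts of other genes.

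No promoter window was found for Hspa8, Hsp90aa1 and Hsp90ab1. Of the inducible genes with a window, Hsph1 has the promoter with the most matches near the start site among those not shared with another gene. The window shown is at chr5:149636287-149636586 on the minus strand (RefSeq, GRCm38.p6, capitals as above).
Hsph1: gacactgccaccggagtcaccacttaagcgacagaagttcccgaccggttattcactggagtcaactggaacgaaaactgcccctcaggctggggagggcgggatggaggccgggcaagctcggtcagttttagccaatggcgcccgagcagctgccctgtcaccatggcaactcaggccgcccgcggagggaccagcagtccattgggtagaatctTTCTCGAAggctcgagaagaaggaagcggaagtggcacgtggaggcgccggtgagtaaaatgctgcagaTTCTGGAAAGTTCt
The window holds 3 matches, 1 of them starting 33 bases before the start site, and 1 run of 3 alternating units after it, where matches overlap. RefSeq has another Hsph1 start site, and the first of these matches starts 54 bases before that one.

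Hspb1, the small heat shock protein that also binds actin filaments, had 53.04 FPKM in WT and 52.55 and 58.05 FPKM in the DF508 libraries. WT lay between the DF508 libraries. The log2 fold change was 0.02 ± 0.135 (SE), with an interval of -0.29 to 0.32 (edgeR adjusted p = 0.982). All its counts, 250, 245 and 271, were whole.

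The mitochondrial chaperonin genes did not differ past the test either. Hspd1, which encodes the subunits of the folding chamber, had 51.36 FPKM in WT and 55.59 and 55.44 FPKM in DF508. The DF508 libraries were alike and slightly above WT, with a log2 fold change of 0.07 ± 0.105 (SE; interval -0.17 to 0.31; edgeR adjusted p = 0.869). Hspe1, which encodes the lid of the chamber, had 74.47 FPKM in WT and 66.04 and 74.7 FPKM in DF508. WT and replicate 2 were almost equal and replicate 1 lower, with a log2 fold change of -0.13 ± 0.131 (SE; interval -0.42 to 0.17; edgeR adjusted p = 0.778). The FPKM of Hspe1 over that of Hspd1 was 1.45, 1.19 and 1.35 in WT and the DF508 replicates, so the lid transcript was the more abundant in each library.

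Hspd1 and Hspe1 lie head to head on chromosome 1, and a promoter window of each covers the same 285 bases. The Hspe1 window is shown because it overlaps a window of Hspd1, at chr1:55087898-55088197 on the plus strand (RefSeq, GRCm38.p6, capitals as above).
Hspe1: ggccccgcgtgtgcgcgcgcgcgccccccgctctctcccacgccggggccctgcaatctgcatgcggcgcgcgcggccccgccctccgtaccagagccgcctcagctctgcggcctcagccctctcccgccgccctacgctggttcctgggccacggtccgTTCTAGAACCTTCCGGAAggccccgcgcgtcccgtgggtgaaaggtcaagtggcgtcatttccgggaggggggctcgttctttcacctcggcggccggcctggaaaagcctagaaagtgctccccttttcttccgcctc
The capitals form an unbroken run of alternating units, with 3 overlapping matches that start 79 to 89 bases before the Hspe1 start site, and the Hspd1 start site whose window overlaps this one lies 216 bases away on the other strand. RefSeq has another Hspd1 start site, 95 bases from that of Hspe1, whose window held no match. Either form of the motif was held by 15.1% of all 32851 RefSeq promoter windows and 3 alternating units by 0.603%. RefSeq windows were found for 7 of the 10 genes. A match was present in 6 of these genes and 3 alternating units in 3, Hsph1, Hspe1 and Hspd1, the last only through the stretch it shares with Hspe1. Counted by window, as the shares above are, a match was in 7 of 10 and 3 alternating units were in 4. Some of these windows overlap, so they are not separate cases. Neither Dnajb1 window held a match, which says only that these letters are not there.

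**Figure D3:**
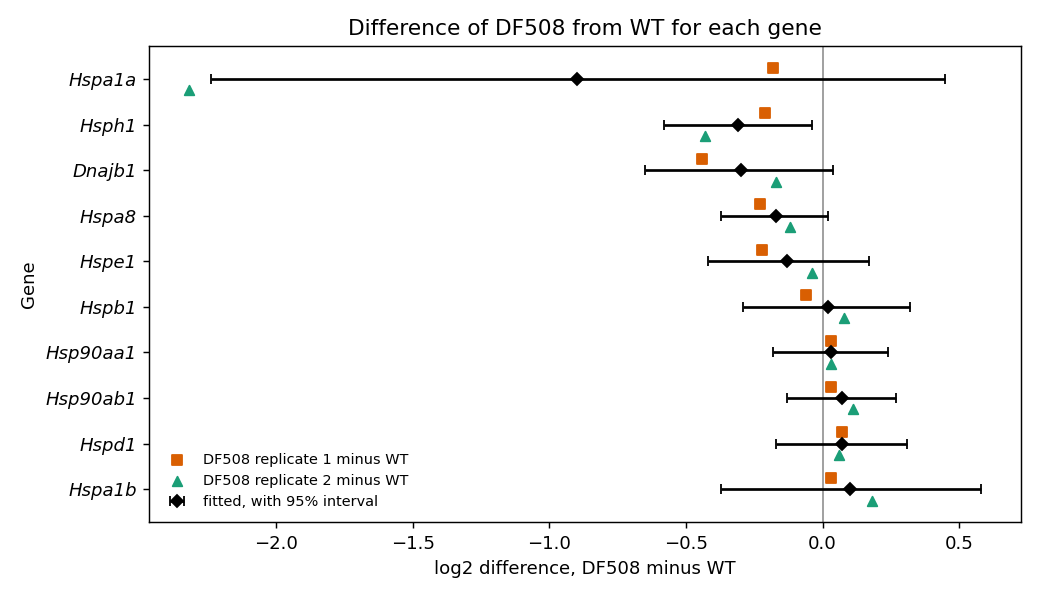
Log2 difference of DF508 from WT (horizontal axis) for each gene (vertical axis): fitted value with its 95% interval (diamond and bar), DF508 replicate 1 (square) and DF508 replicate 2 (triangle). The interval of Hsph1, -0.58 to -0.04, is the only one that does not cross 0, and Hspa1a has the widest, -2.24 to 0.45.

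Whole counts do not show that a member's reads are its own. Of the 50-base words in the GENCODE transcript of Hspa8 74.8% occur in transcripts of 13 other genes, mostly in Gm15459, and of those of Hspb1 60.4%, mostly in Hsp25-ps1. For Hsp90aa1 the share was 58.5%, and for Hspe1 and Hspd1 44.8% each. No count is listed for Gm15459, Gm12346, Hsp25-ps1, AC117239.2 or Hspd1-ps3, the genes that share most words with these members, under these names. Hsph1 shared no such word with any other gene. The sources used here do not say whether the authors' counting used strand or included these copies.

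No gene of the wider chaperone network passed either. In 10 lists of other chaperone genes, co-chaperones, heat shock factors and heat-inducible genes, with the chaperones of the endoplasmic reticulum beside them, 93 genes were listed and 92 tested. The edgeR quasi-likelihood test called 0 of them, beside 1.39% of all genes, with 9 at an unadjusted p under 0.05, beside 1538 of all 12888, and a median log2 fold change of -0.02. DESeq2's Wald test and limma-voom called none either, with 1 and 11 at an unadjusted p under 0.05. Over all 12888 genes those tests had 409 and 1451 at such a p.

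Hsf1, the main heat-responsive transcription factor, had 18.4 FPKM in WT and 16.23 and 16.97 FPKM in DF508, with a log2 fold change of -0.19 ± 0.155 (SE; edgeR adjusted p = 0.697). Hsf2, a second factor of the family, had 5.75 FPKM in WT and 5.31 and 6.46 FPKM in DF508, with WT between the DF508 libraries. Hsbp1, which binds Hsf1, was the most abundant of the 4 genes in this list, at 89.77, 90.27 and 101.67 FPKM. None of the 4 passed, and the median was -0.10.

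In the HSP70 family 7 of 8 other genes were tested and none passed, with a median of 0.04. The HSP110 gene Hspa4 had 42.84 FPKM in WT and 44.66 and 39.72 FPKM in DF508, and Hspa13 had 15.09, 17.05 and 18.51 FPKM. In a list of 13 other J proteins none passed, with a median of -0.09. A negative fold change was found for 10 of them, beside 6327 of all 12888 genes tested. The most abundant were Dnajc8, at 72.58, 72.29 and 73.43 FPKM, and Dnajb6, which keeps aggregation-prone proteins soluble, at 54.51, 50 and 49.29 FPKM. Of 8 HSP70 co-chaperones none passed (median -0.01). St13, which joins HSP70 to HSP90, had 94.67 FPKM in WT and 79.11 and 85.64 FPKM in DF508. Bag3, which links HSP70 to selective autophagy, had 55.8, 62.41 and 58.82 FPKM.

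Of 11 HSP90 co-chaperones none passed, with a median of 0.03. Stip1, the scaffold between HSP70 and HSP90, had 62.77, 68.04 and 66.38 FPKM, and the kinase adaptor Cdc37 59.2, 57.75 and 58.85 FPKM. Of 7 other small heat shock proteins Hspb3 and Cryaa were listed in no library. The other 5 had fitted values above 0 without passing, beside 6561 of all 12888 genes tested with values above 0. The median of these 5 was 0.09, but Hspb2, at 9, 8 and 11 counts, was below WT in DF508 replicate 1. Hspb6, named after its value was seen, had the largest value, at 19.61, 28.07 and 29.57 FPKM, with a log2 fold change of 0.51 ± 0.16 (SE; edgeR adjusted p = 0.219). Cryab had 59.91, 64.18 and 66.39 FPKM and Hspb8 36.25, 40.99 and 38.51 FPKM. Of 14 genes of the cytosolic chaperonin CCT and of prefoldin, which fold actin and tubulin, none passed (median -0.01). Pfdn5 had 104.93, 122.61 and 119.94 FPKM and Cct2 96.99, 99.91 and 94.72 FPKM.

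Of 15 other mitochondrial chaperones and proteases none passed, and the median was -0.08. A negative fold change was found for 13 of them, beside 6327 of all 12888 genes tested. Hspa9, the mitochondrial HSP70, had 99.26 FPKM in WT and 92.16 and 91.61 FPKM in DF508, and the mitochondrial HSP90 Trap1 37.94, 37.02 and 37.06 FPKM. Grpel1, the nucleotide exchange factor of Hspa9, was named after its value was seen: it had 12.62 FPKM in WT and 8.72 and 8.53 FPKM in DF508, with a log2 fold change of -0.59 ± 0.155 (SE; edgeR adjusted p = 0.142).

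The list of other heat-inducible genes holds 13 genes, 10 of them also in the lists above. None passed, and the median was -0.11. An unadjusted p under 0.05 was found for 2 of them, beside 1538 of all 12888 genes tested. Ubb, a ubiquitin gene, had 997 FPKM in WT and 902 and 901 FPKM in DF508, and its counts were not whole, so they are uncertain. Of 12 chaperones of the endoplasmic reticulum none passed, and the median was 0.08. A positive fold change was found for 9 of them, beside 6561 of all 12888 genes tested. Calr had 766 FPKM in WT and 920 and 918 FPKM in DF508, and Pdia3 had 449, 517 and 517 FPKM.

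**Figure D4:**
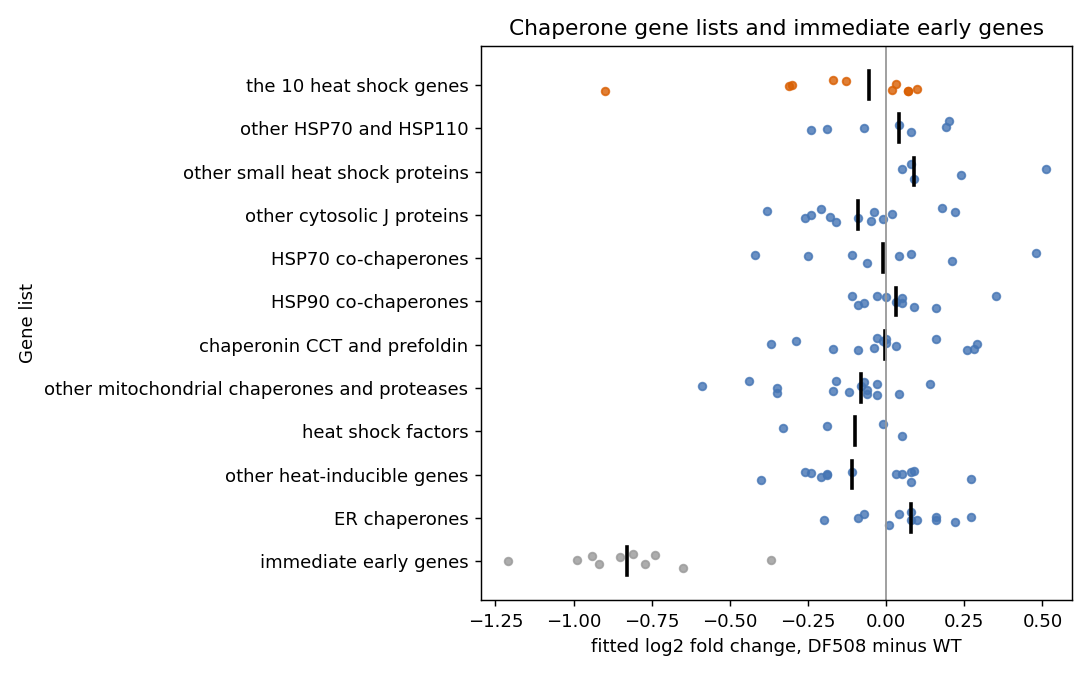
Fitted log2 fold change of DF508 from WT (horizontal axis) for each tested gene (point) in each list (vertical axis), with the list median as a black bar. The median of the 10 heat shock genes is -0.06, and the immediate early genes, with a median of -0.83, lie to the left of 0.

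Another group of stress-responsive genes differed in the same libraries. Of 10 immediate early genes, which serum, handling and stress induce within minutes, 8 were lower in DF508 and none higher (edgeR quasi-likelihood test), beside 0.9% of all genes tested lower, with a median log2 fold change of -0.83. They summed to 5645 CPM in WT, 3656 CPM in DF508 replicate 1 and 3325 CPM in DF508 replicate 2. In the same comparison the summed level of Hspa1a and Hspa1b was 33.49, 33.25 and 25.61 CPM. Of 5 smooth muscle markers 3 passed the same test as higher in DF508, beside 0.489% of all genes, with sums of 592, 1445 and 1450 CPM. By size, all 5 were 1.5-fold or more above WT in each mutant library, beside 4.96% of 12882 genes. The counts of Acta2 and Myh11 were not whole, so they are uncertain. The calls in both lists ended with scaling to the library total alone, without the filter on low counts and in the FPKM fits, where 0 genes were called in the whole table. The part of either list in the values of the heat shock genes was not tested.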

How the data were processed

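Each library has its own table. Per the file headers the authors deposited, for each gene, the expected count (RSEM's estimate of its reads, not normalized), the FPKM (scaled by the authors to gene length and library size) and the gene length. Bowtie, RSEM and the mm9 genome are named in the submitters' processing notes; no version or annotation is stated there. A gene missing from a table was set to 0. An expected count within 0.005 of a whole number was called whole, and 79.4% to 79.8% were; a gene whose count was not whole in at least 1 library is called uncertain. The limit set by a count of 0 is 3 counts (0.566 to 0.572 CPM). Intervals and floors cover counting error only.

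Symbols came from a RefSeq table of GRCm38.p6, which held 16579 of the 16621 gene IDs. Expected counts were rounded and tested across all genes with edgeR's quasi-likelihood test (genotype as the only term, TMM factors of 0.98, 1.01 and 1.01, filterByExpr, Benjamini-Hochberg adjustment, threshold 0.05). The fit has 1 residual and 7.72 prior degrees of freedom. SE is the log2 fold change over the square root of F, and 95% intervals use the total degrees of freedom. CPM in the text is scaled to the library total, from unrounded counts; log2 differences and ratios to WT use TMM-normalized sizes. No list was tested; lists are given by counts and medians. The alternatives changed the scaling (size factors of DESeq2, the upper quartile, the total only), the filter (none, or 50 counts on average) or the model (edgeR's likelihood ratio test, limma-voom, or the Wald test of DESeq2). Others applied limma to log2(FPKM + 1), with and without a minimum mean of 1 FPKM, or to log2(FPKM + 0.1), summed Hspa1a and Hspa1b, or left out a DF508 library.

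The members and lists were chosen with earlier results of these data known. The genes named are the 10 members, Hsf1, Hsf2 and, in each chaperone list, up to 4 genes past the threshold or, as none passed, the 2 with the highest mean FPKM; others are said to be named after their values were seen, or belong to marker lists. A gene that the rule names in the list of heat-inducible genes, and a result of the likelihood ratio test that needs it, are not reported here. Protein identity was planned and replaced by coding sequence identity in GENCODE M21 transcripts, with 50-base words on either strand as a measure of shared reads, since no read length is stated. R 4.3.3, edgeR 4.0.16, limma 3.58.1, DESeq2 1.42.0 and Biopython 1.88 were used, and the test was checked on simulated counts.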

Additional observations from a re-analysis of the deposited data

How the results depend on the processing

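No member passed the threshold under any of the 12 alternatives (lowest adjusted p = 0.297), though DESeq2's Wald test gave no adjusted p for Hspa1a. In all 118 alternative values of a member the sign of its log2 fold change was kept. With a DF508 library left out there is 1 library against 1, so those are values with no test; Hspa1a was the member that moved most, from -2.32 without DF508 replicate 1 to -0.18 without DF508 replicate 2, and Hspb1 was the only one to change sign (-0.06 without replicate 2). The ratio of the summed members, DF508 over WT, was 0.977, with 0.95 and 1.003 for the replicates singly and 0.947 with TMM sizes, a choice added after seeing the data. The number of genes called over the whole table, 179, depended on the model, and the cause was not tested. It was 63 with DESeq2's Wald test and 403 with edgeR's likelihood ratio test. It was 0 with the library total alone, with no filter, and with limma on log2(FPKM + 1), on log2(FPKM + 0.1) and on log2(FPKM + 1) without a filter, where the unadjusted p was under 0.05 for 1253, 1123, 1145, 1159 and 1615 genes. No paired analysis was possible because the WT group has 1 library. Hspa1a and Hspa1b rest on the fewest counts of the 10 genes, and these are shared; what a greater depth would show was not tested.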
